A study of Arabidopsis thaliana with 9 samples.

Results

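Salicylic acid (SA) is a plant defence hormone, and 10 Arabidopsis thaliana genes of its synthesis, its signalling and its best known outputs were followed through silver nitrate exposure. They were chosen by name and locus: ICS1 (AT1G74710), EDS5 (AT4G39030) and PBS3 (AT5G13320) for synthesis, EDS1 (AT3G48090), PAD4 (AT3G52430) and NPR1 (AT1G64280) for signalling, FMO1 (AT1G19250) for the related immune signal N-hydroxypipecolic acid, and the pathogenesis-related genes PR1 (AT2G14610), PR2 (AT3G57260) and PR5 (AT1G75040). The choice was made with earlier results of these data known. All 10 had a probe on the array, all were well above background on all 9 arrays, and they were 10 of 21042 genes tested. Each array measured RNA of whole seedlings of the wild-type accession Col-0, about 3 weeks old, which had spent 1 week on agar and 2 weeks in shaken liquid medium at 22 °C in continuous light. Silver nitrate was added to 0.1 mM, and seedlings were harvested at that moment (0 h) or 48 h or 72 h later, in 3 independent experiments per time, each on other plants. No untreated plants of 48 h or 72 h were among the samples, so an effect of silver and an effect of the further time in culture cannot be told apart.

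In Arabidopsis most of the SA made during defence comes from isochorismate, which ICS1 forms from chorismate inside the plastid. EDS5 exports isochorismate from the plastid, and PBS3 couples it to glutamate to give an intermediate that yields SA. EDS1 and PAD4 form a complex that promotes this synthesis in immunity. NPR1 binds SA and, with TGA transcription factors, activates target genes, of which PR1, PR2 and PR5 are the standard readouts. FMO1 makes N-hydroxypipecolic acid, a mobile signal of systemic acquired resistance that acts together with SA.

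Levels are log2 values of the Agilent processed signal, scaled so that 0 is the 75th percentile of all probes on that array. They compare arrays for 1 gene and not genes with each other, since probes differ in brightness. Values at a time are listed for replicates 1, 2 and 3. Differences are log2 differences ± standard error from limma over all 9 arrays (3 per time), and a gene was called changed at an adjusted p (Benjamini-Hochberg over all 21042 genes) under 0.05. The 75th percentile was 1583 for 0 h replicate 3 and 1966 for 48 h replicate 3, which shared slide 3, against 2758 to 3681 on the other 7 arrays. Slide 1 held all times of replicate 1, slide 2 held all times of replicate 2, and slide 4 held 72 h replicate 3 alone. Between 65.2% and 68.2% of probes were well above background on an array. Arrays of 1 time correlated at 0.963 to 0.984 for 0 h, 0.983 to 0.988 for 48 h and 0.981 to 0.991 for 72 h.

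At 48 h, 6 of the 10 genes were higher than at 0 h (PR2, PBS3, PR5, FMO1, ICS1 and EDS5), none was lower and 4 were not called. Over all genes tested, 29.9% were called in that comparison, 14.1% higher and 15.8% lower. At 72 h, 7 of the 10 were higher, the same 6 and PR1, against a background of 36.3% called, 16.7% higher and 19.6% lower. The treated arrays lay wholly above the 0 h arrays for the 6 genes called at 48 h and the 7 called at 72 h, which was so for 21.4% of all genes at 48 h and 24.5% at 72 h (wholly below at 72 h for 25.3%, and for 0 of the 10). The median difference of the 10 genes was 1.81 at 48 h and 1.98 at 72 h, beside 0.01 and 0.0015 over all genes. Both comparisons use the same 0 h arrays and are therefore not independent of each other. A test for any difference among the 3 times (limma's moderated F test) called 6 of the 10, beside 32.8% of all genes; PR1 had an adjusted F test p of 0.0705 and PAD4 of 0.0501. Since whole seedlings were ground, a change in RNA per cell and a change in the share of cells that express a gene cannot be told apart.

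**Figure D1:**
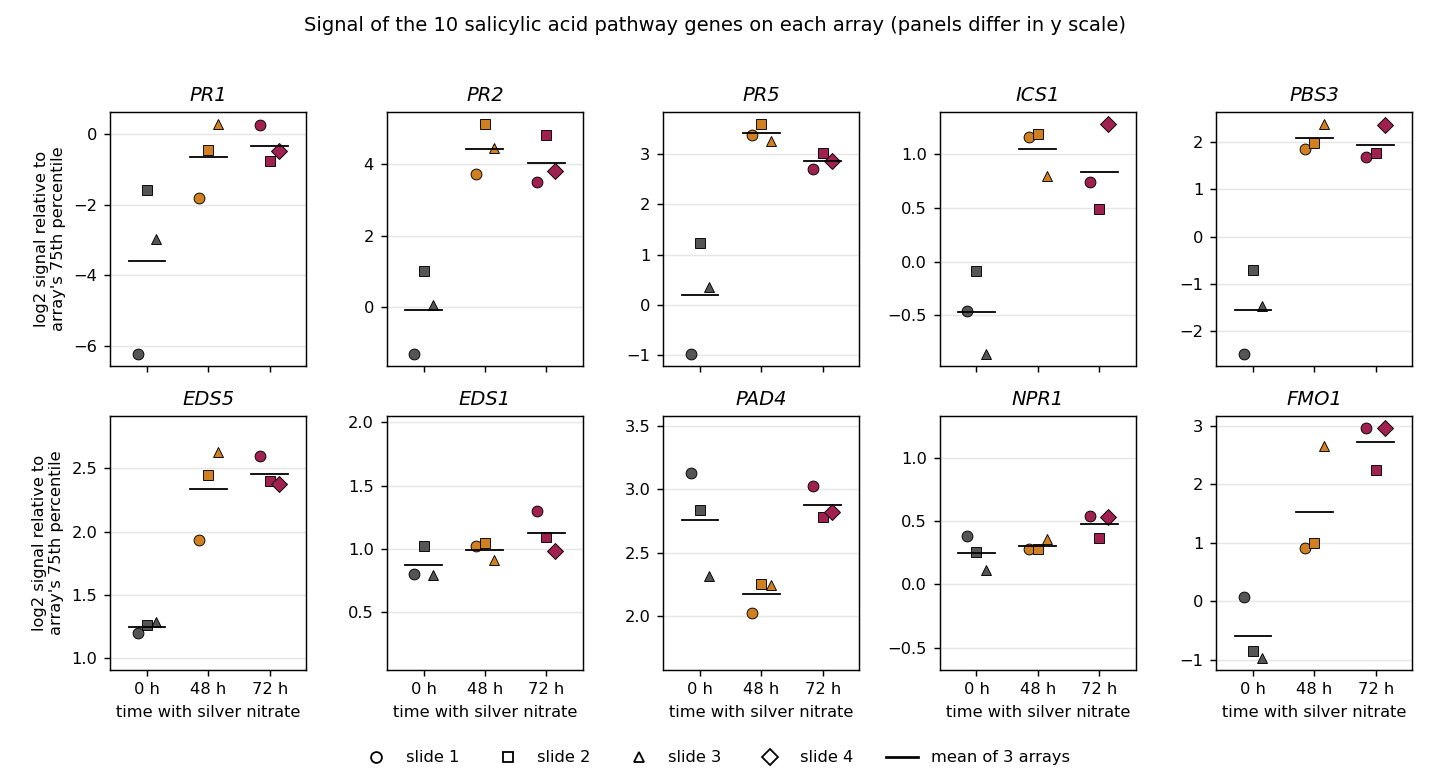
Level of each gene on each of the 9 arrays (log2 signal relative to the array's 75th percentile) by time, 1 point per array with its shape giving the slide and a line at the mean of the 3 arrays; the panels differ in y scale. PR2, PR5, PBS3, ICS1, EDS5 and FMO1 have 48 h and 72 h points above all of their 0 h points, while EDS1 and NPR1 stay within a narrow band and PR1 scatters widely at 0 h.

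All 3 synthesis genes among the 10 rose. ICS1, the committed enzyme, stood at -0.46, -0.09 and -0.86 at 0 h, at 1.17, 1.19 and 0.80 at 48 h, and at 0.74, 0.49 and 1.28 at 72 h. Every treated array was above every 0 h array, and the 48 h and 72 h arrays overlapped. The rise was 1.52 ± 0.26 at 48 h (2.88-fold, limma adjusted p = 0.0027) and 1.31 ± 0.26 at 72 h (2.48-fold, adjusted p = 0.00451). A dimmer ICS1 probe gave nearly the same differences, 1.53 at 48 h and 1.27 at 72 h. ICS1 was the only one of the 10 genes with a pair of probes.

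PBS3, the glutamate-conjugating enzyme, started at -2.48, -0.71 and -1.46 and reached 1.86, 1.98 and 2.38 at 48 h and 1.67, 1.77 and 2.36 at 72 h. The 48 h and 72 h arrays lay close together, and all 6 were above the 0 h arrays by more than 2 log2 units. PBS3 rose by 3.62 ± 0.41 at 48 h (12.3-fold, limma adjusted p = 0.000424) and by 3.49 ± 0.41 at 72 h (11.2-fold, adjusted p = 0.000359). Among the 3 synthesis genes its difference from 0 h was the largest at both times.

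EDS5, the plastid exporter, had almost the same level in the 3 experiments before treatment, at 1.197, 1.26 and 1.29. It was at 1.94, 2.45 and 2.62 at 48 h and at 2.59, 2.40 and 2.37 at 72 h. The rise of 1.09 ± 0.18 at 48 h (2.13-fold, limma adjusted p = 0.00245) and of 1.21 ± 0.18 at 72 h (2.31-fold, adjusted p = 0.00112) was the smallest among the called genes, yet no treated array reached down to the 0 h range.

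Neither signalling gene upstream of synthesis was called at either time. EDS1, the lipase-like hub of basal and receptor-triggered immunity, was at 0.81, 1.02 and 0.79 at 0 h, at 1.02, 1.05 and 0.91 at 48 h, and at 1.301, 1.09 and 0.99 at 72 h. The times overlapped, with differences of 0.12 ± 0.13 at 48 h (limma adjusted p = 0.54) and 0.25 ± 0.13 at 72 h (adjusted p = 0.168). The 95% interval of the EDS1 difference ran from -0.18 to 0.42 at 48 h and from -0.04 to 0.55 at 72 h.

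PAD4, the partner of EDS1, was the only one of the 10 genes whose 48 h arrays all lay below its 0 h arrays. Its levels were 3.13, 2.84 and 2.31 at 0 h, 2.02, 2.25 and 2.24 at 48 h, and 3.02, 2.78 and 2.82 at 72 h. The 48 h difference of -0.59 ± 0.20 (95% interval -1.05 to -0.13) had a limma adjusted p of 0.059 and was not called. Arrays of 48 h lay wholly below 0 h for 21.8% of all genes, so this ordering is common in these data. On the shared slides the 48 h difference was -1.11, -0.59 and -0.07 in experiments 1, 2 and 3. At 72 h the arrays overlapped those of 0 h (0.12 ± 0.20, adjusted p = 0.696).

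NPR1, the SA receptor and coactivator, was not called at either time. It measured 0.38, 0.26 and 0.12 at 0 h, 0.28, 0.28 and 0.36 at 48 h, and 0.54, 0.37 and 0.53 at 72 h. Its difference was 0.06 ± 0.12 at 48 h (limma adjusted p = 0.778) and 0.23 ± 0.12 at 72 h (adjusted p = 0.175), with 95% intervals of -0.22 to 0.33 and -0.04 to 0.50.

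FMO1 rose at both times. The levels were 0.08, -0.85 and -0.97 at 0 h, 0.91, 1.00 and 2.65 at 48 h, and 2.96, 2.24 and 2.97 at 72 h. At 48 h replicate 3 was far above the other two, and at 72 h all 3 arrays were high. The rise was 2.103 ± 0.49 at 48 h (4.30-fold, limma adjusted p = 0.0122) and 3.30 ± 0.49 at 72 h (9.87-fold, adjusted p = 0.00109). Within slides the 48 h rise was 0.83, 1.85 and 3.62. Without the slides that carried the replicate 3 arrays it was 1.34 with an adjusted p of 0.0818.

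**Figure D2:**
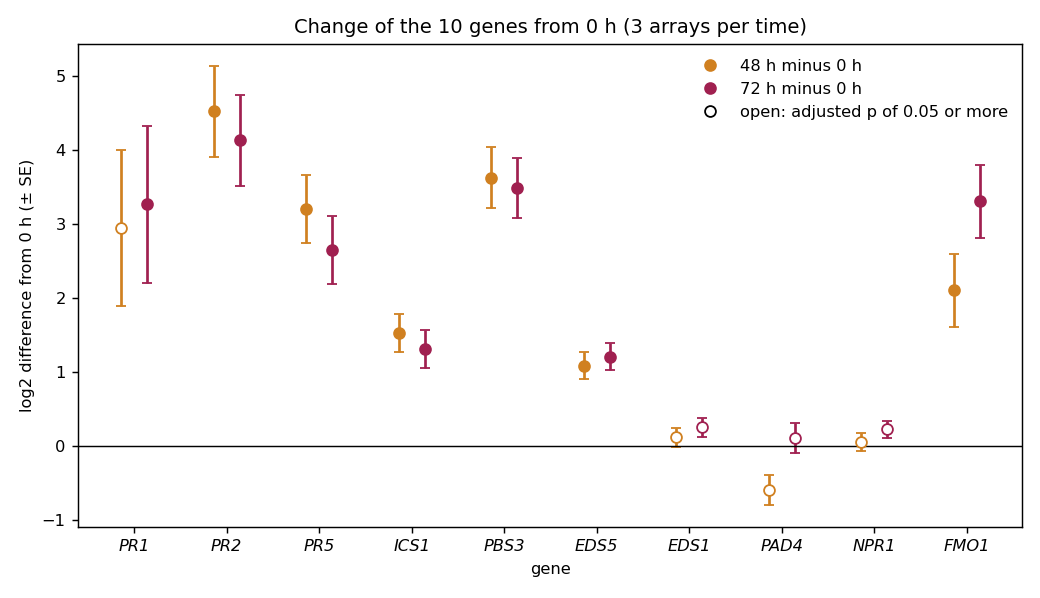
Log2 difference from 0 h of each gene at 48 h and at 72 h, with limma's standard error as bars and n = 3 arrays per time. PR2 and PBS3 stand highest at 48 h, the bar of PR1 is the longest, and EDS1 and NPR1 lie near 0.

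The PR genes encode secreted antimicrobial or cell wall degrading proteins: PR2 is a beta-1,3-glucanase and PR5 a thaumatin-like protein, while PR1 is the most widely used marker of SA signalling. PR2 had the largest rise of the 10 genes. It went from -1.32, 1.02 and 0.05 at 0 h to 3.72, 5.13 and 4.45 at 48 h, and stood at 3.49, 4.82 and 3.81 at 72 h. That is a rise of 4.52 ± 0.61 at 48 h (22.9-fold, limma adjusted p = 0.000995) and of 4.13 ± 0.61 at 72 h (17.5-fold, adjusted p = 0.00113). The PR2 rise was the 68th largest of all genes at 48 h and the 118th at 72 h. Without 0 h replicate 1, its lowest array, it was 3.90 at 48 h and 3.51 at 72 h, with adjusted p of 0.00138 and 0.00164.

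PR5 followed the same course. The 0 h levels were -0.98, 1.23 and 0.36, the 48 h levels 3.38, 3.60 and 3.25, and the 72 h levels 2.69, 3.02 and 2.85. The 0 h arrays spread over more than 2 log2 units, whereas the arrays of each later time lay within 0.4. PR5 rose by 3.20 ± 0.46 at 48 h (9.21-fold, limma adjusted p = 0.00129) and by 2.65 ± 0.46 at 72 h (6.27-fold, adjusted p = 0.0025). Without 0 h replicate 1 the rise was 2.61 at 48 h and 2.06 at 72 h (adjusted p = 0.000409 and 0.000746). Without slides 3 and 4 the 72 h rise was 2.73 with an adjusted p of 0.0519.

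PR1 had large mean differences and the widest scatter. Its levels were -6.24, -1.58 and -2.98 at 0 h, -1.80, -0.45 and 0.29 at 48 h, and 0.24, -0.78 and -0.47 at 72 h. In processed signal the 0 h arrays read 38.8, 923 and 200, so replicate 1 was the dimmest and replicate 2 the brightest of the 3. The lowest 48 h array lay below the highest 0 h array, and the 72 h arrays did not overlap those of 0 h. PR1 differed by 2.94 ± 1.06 at 48 h (7.69-fold, limma adjusted p = 0.0673, not called) and by 3.26 ± 1.06 at 72 h (9.61-fold, adjusted p = 0.0404). Within slides the 48 h difference was 4.44, 1.13 and 3.27, and the 72 h difference was 6.48 in experiment 1 and 0.80 in experiment 2. The 72 h call was lost in 10 of 21 alternative settings, among them each one that left out a 72 h array, with adjusted p between 0.0137 and 0.164 over all settings. The size of the PR1 difference rested on the 0 h arrays: at 48 h it was 1.62 (adjusted p = 0.0937) without 0 h replicate 1 and 3.95 (adjusted p = 0.0231) without 0 h replicate 2, and at 72 h it was 1.95 (adjusted p = 0.0465) and 4.28 (adjusted p = 0.0137).

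The PR genes and PBS3 scattered widely before treatment. The standard deviation over the 3 arrays of 0 h was 2.39 for PR1, 1.17 for PR2, 1.11 for PR5 and 0.89 for PBS3, beside a median of 0.267 over all genes. That of PR1 was larger than 99.9% of genes, that of PR2 larger than 98.1%, that of PR5 larger than 97.7% and that of PBS3 larger than 95.5%. EDS5 was at the other end, with 0.0457 and only 3.08% of genes below it. Replicate 1 was the lowest and replicate 2 the highest 0 h array for PR1, PR2, PR5 and PBS3. Replicate 2 was the highest 0 h array for 6 of the 10 genes (ICS1 and EDS1 also) and for 17.9% of all genes. By 72 h the standard deviation of PR1 was 0.525, of PR5 0.164 and of PBS3 0.372, while that of PR2 was still 0.692. The median over all genes was 0.198 at 48 h and 0.161 at 72 h.

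**Figure D3:**
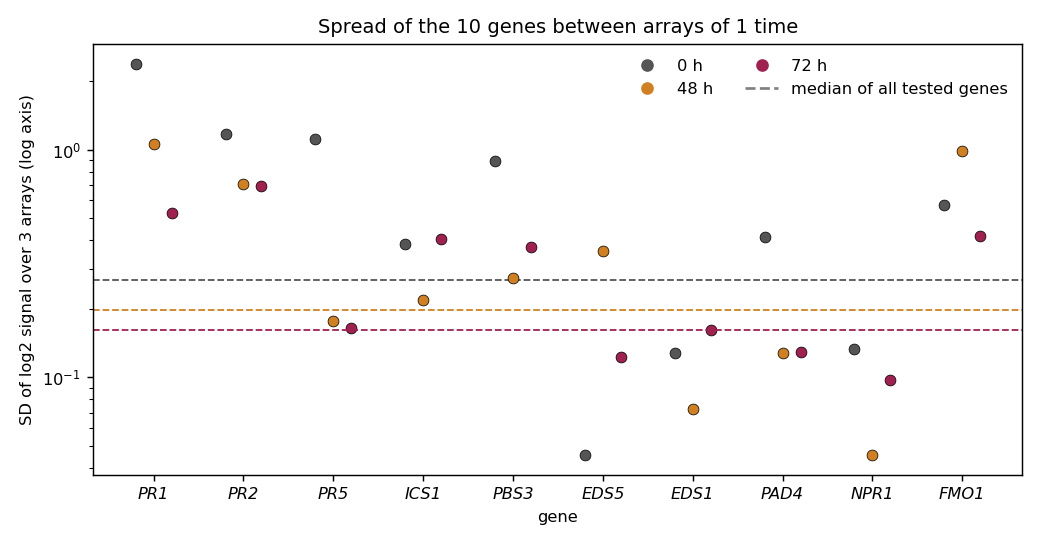
Standard deviation of each gene over the 3 arrays of a time (log2 units, log axis), for each of the 3 times, with the median over all genes marked. PR1 at 0 h is the highest point at 2.39, and EDS5 at 0 h is among the lowest at 0.0457.

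After subtraction of the mean of each time, the deviations of PR1 and PBS3 correlated at r = 0.859 over the 9 arrays, those of PR2 and PR5 at 0.853, of PR5 and PBS3 at 0.847 and of PR1 and PR5 at 0.832. PAD4 and NPR1 gave 0.847 and NPR1 and FMO1 0.740, whereas PR2 and NPR1 gave -0.580 and PR5 and FMO1 -0.542. ICS1 gave 0.065 with PR1 and 0.030 with PR2. These coefficients describe 9 arrays that share slides and experiments, and no p is attached to them. For PR1, PR2, PR5 and PBS3 the spread was largest at 0 h, so the coefficients among them rest mainly on the 0 h arrays. The order differed at later times: 48 h replicate 3 was highest for PR1 and PBS3 and lowest for PR5. At 72 h, replicate 2 was lowest for PR1 and highest for PR2 and PR5. The spread of PAD4 and NPR1 was also largest at 0 h, with standard deviations of 0.413 and 0.133. PAD4, NPR1 and FMO1 all had replicate 1 highest and replicate 3 lowest at 0 h. Over all genes, replicate 1 was the highest 0 h array for 40.6% and replicate 3 the lowest for 38.4%.

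Between 48 h and 72 h none of the 10 genes was called by limma, and 0 of all 21042 genes were, with a smallest adjusted p of 0.0517 (percent called 0). At an unadjusted p under 0.05 there were 1941 genes (9.22%), among them PAD4 and FMO1. PAD4 was higher at 72 h than at 48 h by 0.70 ± 0.20 (unadjusted p = 0.00771, adjusted p = 0.297), with the 3 arrays of 72 h all above those of 48 h. FMO1 was higher by 1.2004 ± 0.49 (2.30-fold, unadjusted p = 0.0377, adjusted p = 0.499), and its arrays overlapped because 48 h replicate 3 lay within the 72 h range. PR5 was lower on every 72 h array than on every 48 h array (-0.55 ± 0.46, adjusted p = 0.835). NPR1 was higher on every 72 h array than on every 48 h array (0.17 ± 0.12, adjusted p = 0.786). The 72 h arrays lay wholly above the 48 h arrays for 7.78% of all genes and wholly below for 9.75%.

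Around these 10 genes, 59 further genes of the SA pathway were measured. At each of the 2 later times 27 were higher, 6 were lower and 26 were not called, with a median difference of 0.65 at 48 h and 0.64 at 72 h. Over all genes 14.1% were higher and 15.8% lower at 48 h, and 16.7% and 19.6% at 72 h, which is the background for this count and for each list that follows. The lists were chosen with earlier results of these data known, so none of these counts is an independent test against that background. In the authors' deposited value table, on whose scale the median of all genes moved to 0.15 at 48 h and 0.23 at 72 h, the split at 48 h was 29 higher and 2 lower, and at 72 h 37 higher and 4 lower. Among 7 other synthesis enzymes 3 rose and 1 fell at each time. ICS2, the second isochorismate synthase, went from -4.74, -4.14 and -5.25 at 0 h to -1.77, -1.05 and -1.10 at 48 h, a rise of 3.40 ± 0.32 (10.6-fold, limma adjusted p = 0.000211), and was 2.57 ± 0.32 above 0 h at 72 h. EPS1, which releases SA from the PBS3 product, rose by 1.40 ± 0.28 and 1.68 ± 0.28. PAL1, an entry enzyme of the phenylpropanoid route, rose by 0.65 and 1.08, and PAL3 fell by 0.48 and 0.70 at 48 h and 72 h.

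Of 7 regulators of SA synthesis 1 rose and 2 fell at 48 h, and 2 rose and 2 fell at 72 h. The shares over all genes were 14.1% higher and 15.8% lower at 48 h, and 16.7% and 19.6% at 72 h. WRKY28 rose by 0.77 ± 0.21 and 1.71 ± 0.21 (limma adjusted p = 0.0228 and 0.000422), and NTL9 rose by 0.89 at 72 h. CBP60G, a main activator of ICS1 in immunity, fell by 0.60 and 0.67, and its homologue SARD1 was not called (0.21 ± 0.29 and 0.29 ± 0.29). EIL1, which with EIN3 represses ICS1, fell by 0.68 and 0.74, while EIN3 differed by -0.09 and -0.02 and was not called. Of 7 partners and helper receptors of EDS1, 1 was higher and 0 were lower at each time, with the count of higher genes near the share called higher over all genes. That gene was EDS1B, the close copy of EDS1, which rose by 0.91 and 1.08. EDS1 and EDS1B are similar in sequence, and how far their probes share signal was not tested.

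The NPR family, TGA factors and NIMIN proteins gave 5 higher and 1 lower of 13 at 48 h, and 6 higher and 1 lower at 72 h. NIMIN1, which binds NPR1 and dampens it, rose from -3.23, -3.51 and -4.00 at 0 h to 0.20, 0.04 and -0.19 at 48 h, by 3.60 ± 0.31 (12.1-fold, limma adjusted p = 0.000145), and was 2.68 ± 0.31 above 0 h at 72 h. TGA7 rose by 1.71 and 1.70 and TGA3 by 1.00 and 0.88. Of the NPR1 paralogues, NPR4 rose by 0.98 and 0.78 and NPR3 fell by 0.74 and 0.63. NPR2 was not called at 48 h (0.35) and rose by 0.99 at 72 h (limma adjusted p = 0.0222).

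Of 9 enzymes that modify SA or release it from methyl salicylate, 6 rose at 48 h and 5 at 72 h, and none fell. The esterases MES1 and MES9, which release SA, are in this list: MES9 rose by 1.07 and 1.48, and MES1 (0.79 and 0.64) was not called. S3H, an SA hydroxylase, rose by 3.93 ± 0.44 (15.2-fold, limma adjusted p = 0.00043) and 3.78 ± 0.44. DMR6, the other SA hydroxylase, rose by 2.07 and 1.45, and the glucosyltransferases UGT76B1 and UGT74F2 rose by 2.49 and 1.41 at 48 h. The methyltransferase BSMT1 was well above background on 1 of 3 arrays at 0 h, 3 of 3 at 48 h and 2 of 3 at 72 h, and was called at 48 h only (adjusted p = 0.0231, and 0.137 at 72 h). Both enzymes that feed FMO1 rose at 48 h, ALD1 by 2.69 ± 0.52 and SARD4 by 1.39 ± 0.20. At 72 h SARD4 was higher by 1.01 ± 0.20, and ALD1 (1.31 ± 0.52, adjusted p = 0.0827) was not called, while FMO1 differed from 0 h by 3.30.

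Of 14 further SA response genes 9 rose and 2 fell at each time. PNP-A rose by 3.52 and 2.70, AIG1 by 3.48 and 3.19, AED1 by 3.34 and 2.29, and LURP1 by 3.18 and 2.47 at 48 h and 72 h. Among WRKY factors WRKY62, WRKY54, WRKY38, WRKY51 and WRKY70 rose, while WRKY46 fell by 1.62 and 1.85 and WRKY18 by 0.94 and 1.06. Of 6 relatives of the PR genes in sequence, 4 passed the background filter, and the glucanase gene BG1 was called higher, by 1.69 at 48 h, the 1 rise among them. At 72 h the PR1-like gene AT2G19990 fell by 1.44 and the thaumatin-like gene AT1G75030 by 0.87. PR genes controlled by jasmonate and ethylene gave 2 lower of 5 at 48 h and 3 lower at 72 h, with none higher. The plant defensin PDF1.2A fell by 1.25 and 1.32, and PR3 (0.61 ± 0.30, adjusted p = 0.159) and PR4 (-0.08 ± 0.16, adjusted p = 0.742) were not called at 48 h. The defensin genes are near-identical copies, so their probes may share signal.

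**Figure D4:**
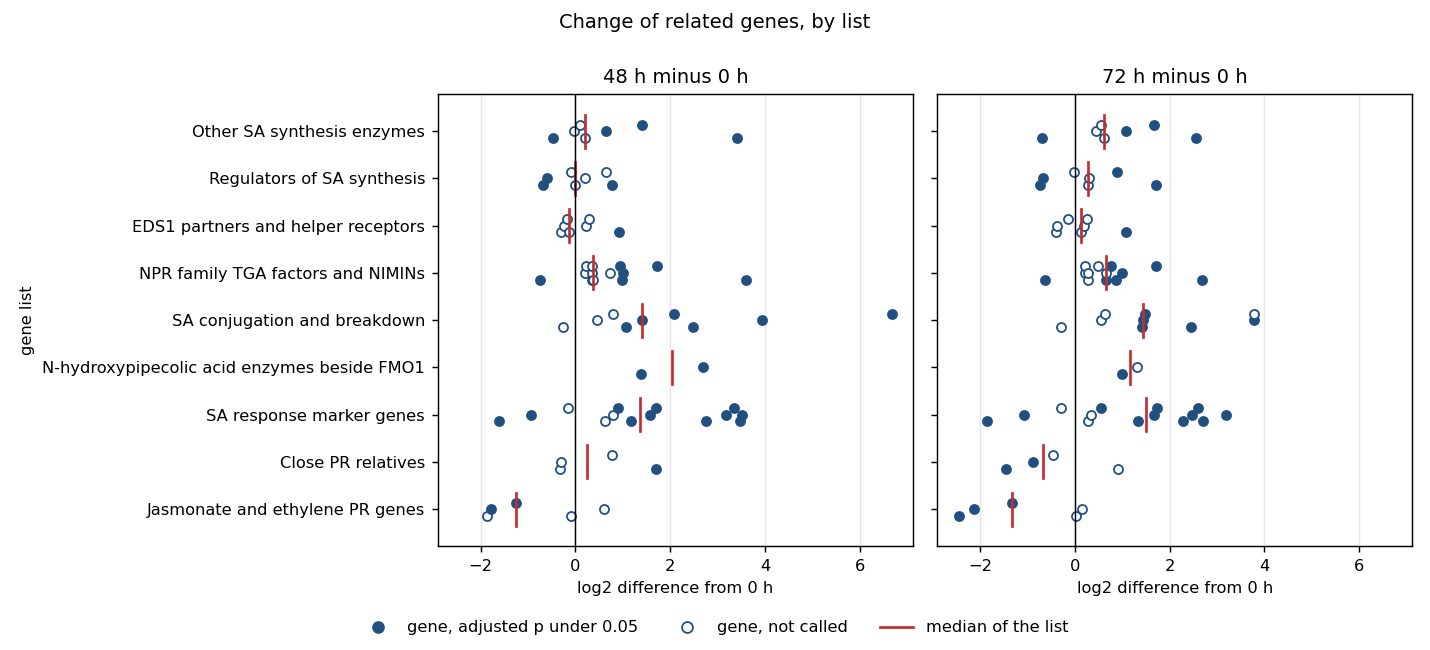
Log2 difference from 0 h of each measured gene in lists of related genes at 48 h and 72 h, on the same axis in both panels. Filled points were called at an adjusted p under 0.05, and the red line is the median of a list. The conjugation and breakdown list (with the esterases MES1 and MES9) and the SA response genes have medians to the right of 0 at both times, and the jasmonate and ethylene PR genes to the left.

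The genes whose levels followed a member most closely over the 9 arrays were sought among 8850 genes with a symbol and above background on every array, for PR1, ICS1 and NPR1. For PR1 the Pearson coefficients were 0.970 for FAR8, 0.963 for PUB24 and 0.959 for FAR1, then 0.945 for both AlaAT1 and SIP1;2. Nearest to ICS1 were UGT74F2 (0.983), pPLAIIIbeta (0.981), TGA3 (0.976), ABCC10 (0.970) and ORG1 (0.966). NPR1 was closest to PSKR1 (0.967), PAH2 (0.962), MYB3R-5 (0.962), GSTF3 (0.937) and CYP72A7 (0.937). All of these are the highest of 8850 coefficients over 9 arrays, so high values can arise from the search itself. They mix differences between times with scatter within a time, and no p is attached to them. NPR1 itself was not called at either time. FAR8, the nearest to PR1, was not called either (limma adjusted p = 0.110 at 48 h and 0.108 at 72 h).

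Marker transcripts of several tissues also differed between the times. Of 5 leaf markers 4 fell at each time, and their summed signal, as a multiple of the array's 75th percentile, went from 333 to 376 at 0 h to 150 to 180 at 48 h and 144 to 171 at 72 h. Of 5 root markers 1 rose and 2 fell at 48 h and 4 fell at 72 h, their sum being 4.02 to 10.3 at 0 h, 4.09 to 7.93 at 48 h and 0.608 to 1.95 at 72 h. The root markers went in different directions at 48 h, with NRT2.1 up by 4.22, PHT1;1 at 0.03 and not called, and COBL9 at -4.13. All sums in this paragraph add unlogged signals, so the brightest probes set most of a sum and the dimmer markers hardly count. Among root markers PHT1;1 was the brightest, with a mean level of 2.32 at 0 h and 2.34 at 48 h, beside -0.48 and -4.61 for COBL9. The root hair gene RHS18 was not well above background on any 48 h or 72 h array, which makes it at least 33.3-fold lower at 48 h and at least 47.6-fold lower at 72 h. Of 4 epidermis and guard cell markers 2 fell at 48 h and 3 at 72 h (sums of 3.21 to 3.97, 2.14 to 2.50 and 1.64 to 1.99), and of 4 vascular markers 2 rose at 48 h and 1 at 72 h (sums of 12.4 to 16.1, 15.0 to 17.3 and 14.5 to 18.5). Senescence markers gave 2 higher of 4 measured at 48 h and 1 at 72 h, and their sum was 14.3 to 34.2, 21.0 to 27.4 and 30.0 to 30.6. SAG13 rose by 3.53 and 4.11, SAG29 rose by 3.67 at 48 h and was not called at 72 h (1.54), and neither SEN1 (-0.51 and -0.29) nor ORE1 (-0.74 and -0.77) was called. Of 5 reference genes ACT2 fell by 0.83 and 0.80 and the other 4 were not called. The part of these marker shifts in the results for the SA genes was not tested.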

How the data were processed

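RNA of 9 seedling samples (3 times, 3 arrays each) was hybridised to 1-colour Agilent arrays, on 4 slides. Groups and replicate numbers come from the labels. Scanner files made with Agilent Feature Extraction 9.5.3.1, per the submitters' processing notes, hold the processed signal, an intensity that the authors deposited without scaling between arrays. Other deposited columns flag spots as well above background, saturated or outliers. The value table the authors deposited holds a ratio on a linear scale; its scaling per array and reference per probe stay unknown, its column medians were 0.901 to 1.11, and its log2 differences within probes, each array centred, matched the scanner values within 0.01 for 21014 of 21020 genes. It served as an alternative only.

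Control spots and 80 outlier spots were left out, and no spot was saturated. Probes entered the test if the 3 arrays of some time all flagged them well above background, and the probe with the highest mean stood for a locus, which left 21042 genes. The test was limma 3.58.1 (R 4.3.3; 1 mean per time, 6 residual and 2.54 prior degrees of freedom), two-sided. The number of arrays limits the precision: the median standard error at 48 h was 0.194. In simulated data for 48 h versus 0 h over 21020 genes, 53% of changes of 1 log2 unit and 84% of changes of 2 were recovered. There 200 genes were changed, with independent normal noise and no slide effect, and 7 of 144 calls were false. In the real comparison 29.9% of genes were called, so these shares do not give the recovery in the real data. The members and gene lists were chosen with earlier results of these data known. Members are all named; genes of the lists are named as examples, and the 5 nearest genes by correlation are named for PR1, ICS1 and NPR1.

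Same-numbered arrays of 0 h and 48 h, which shared a slide, deviated together from their group means (correlations 0.255, 0.317 and 0.401). The 72 h arrays of replicates 1 and 2 were on the same slides, and their correlations with 0 h were 0.209 and -0.00955. Over all 9 pairs of times the range was -0.039 to 0.401, with 6 over 0.1. The main fit used no pairing, and its p values are unpaired. A replicate block over all 3 times was run as an alternative. Alternatives covered normexp background correction (offset 50, on the median signal, the column the files hold), other scalings, filters and probe rules, the deposited table, replicate and slide blocks and leaving out each array. Leaving out slides 3 and 4 was chosen after seeing the data. Promoter sequence was not analysed here.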

Additional observations from a re-analysis of the deposited data

How the results depend on the processing

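Over 21 alternatives, 612 of 630 values of a member's difference kept their direction where called and their side of the threshold, 12 lost a call, 6 gained one and 0 called values changed sign. The number of members called was 6 to 7 at 48 h, 5 to 9 at 72 h and 0 for 72 h versus 48 h in every alternative run, and 5 to 7 by the F test. With a replicate block 6 members were called at 48 h and 7 at 72 h, the same genes, and PR1 at 48 h had an adjusted p of 0.059; the block changed no other call of a member and gave 6744 and 8140 genes in all. Lost calls were PR1 at 72 h (10 alternatives, differences of 1.95 to 4.28 over all), among them the slide block (3.72, adjusted p = 0.0755), and, without slides 3 and 4, FMO1 at 48 h and PR5 at 72 h. Gained calls were PR1 at 48 h without 0 h replicate 2; PAD4 at 48 h with median scaling (-0.69, adjusted p = 0.0344), without 0 h replicate 3 (-0.81 at an adjusted p of 0.0075), and with slides 3 and 4 left out (-0.85 at 0.0418); and EDS1 and NPR1 at 72 h in the deposited value table (0.48 and 0.46, adjusted p = 0.0291 and 0.0341). The cause of these shifts was not tested. On the deposited table's scale the median of all genes lies at 0.15 at 48 h and 0.23 at 72 h. With each array centred, that table matched the scanner values within 0.01 for all 10 members. In the main setting the 72 h differences of EDS1 and NPR1 were 0.25 and 0.23.

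Genes called for 72 h versus 48 h, 0 in the main setting, were 1 with normexp, 2 with median scaling, 3 with quantile normalization, 1 in the deposited table, 3 with only the 2 times compared, 6 with the replicate block and 0 to 7 when 1 array was left out. Without slides 3 and 4, which leaves 2 arrays per time, 3024 genes were called at 48 h and 4418 at 72 h, and 19 other SA pathway genes at 48 h (18 higher, 1 lower). Leaving out 1 array gave 4654 to 6972 genes at 48 h, 5640 to 8437 at 72 h, and 25 to 33 and 29 to 38 other SA pathway genes. Of the calls over all genes, 47.1% were higher at 48 h and 45.9% at 72 h, against 59.6% and 65.2% in the deposited table. Within slides, 20 of 70 member differences moved by more than the spread between replicates. All 10 members were well above background on every array; PR1 on 0 h replicate 1, at a processed signal of 38.8, was the dimmest value.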

Other observations

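The order of the 0 h arrays seen for PR1, PR2, PR5 and PBS3, with replicate 1 lowest and replicate 2 highest, was looked up in the listed genes after those values were seen. It was found in 9 of the 59 other SA pathway genes (15.3%) and in 8.17% of all genes. Those 9 were AIG1 (-3.85, -2.20 and -2.61), PNP-A (-4.05, -0.97 and -2.08), AED1 (-2.57, -0.95 and -1.45), WRKY70, WRKY18, GRX480, SARD1, NIMIN2 and BSMT1. Among the other lists, the glucanase gene BG3 (-4.01, -0.90 and -1.13), PR4, PDF1.3 and the leaf marker CAB1 had it too. Replicate 1 was the lowest 0 h array for 5 of the 10 members, 8 of the 14 SA response genes, 15 of the 59 other SA pathway genes and 38.0% of all genes. Replicate 3 was the lowest for the other 5 members (ICS1, EDS1, PAD4, NPR1 and FMO1), 38 of the 59 and 38.4% of all genes. S3H, an enzyme of SA breakdown, had replicate 1 highest, at -1.37, -2.30 and -3.20.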
